A study of Mus musculus with 10 samples.

Results

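The homologous recombination and Fanconi anaemia genes are a set of 37 mouse genes that repair broken or cross-linked DNA, taken as a list of gene names. Of these, 34 had a probe set that carries their symbol alone, and 33 were bright enough to enter the fit. Xrcc2, Rad54b and Fanca had no such probe set and were not analysed here, and Rmi1 lay below the intensity filter. The fit as a whole held 16635 of 22180 measured genes. Each gene was read from its brightest probe set on average, and among the members only Atr had more than 1.

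The arrays measured RNA from nasal respiratory epithelium of E16.5 mouse embryos, cut out by laser capture from formalin-fixed, paraffin-embedded sections. The comparison was between 5 wild-type embryos (WT) and 5 embryos that were miR-34a-/-, also miR-34b/c-/- and also miR-449a/b/c-/- (TKO), with 1 array per embryo. Of the WT embryos 4 were labelled female and 1 (WT 3) male. Of the TKO embryos 2 (TKO 1 and TKO 3) were labelled female and 3 male. The labels give neither the strain nor whether embryos shared a litter, so p-values measure the spread between these embryos. The values were log2 intensities after robust multi-array averaging, and a level is never set against that of another gene. In laser-captured tissue, fewer cells of a type and less RNA per cell cannot be told apart.

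Homologous recombination copies the intact sister chromatid to mend a double-strand break. The ends are resected to single strands, BRCA1, PALB2 and BRCA2 prepare them for strand invasion, and the joint molecules are later dissolved or cut. In the Fanconi anaemia pathway a core complex ubiquitinates the FANCI-FANCD2 pair at a cross-link, which brings in nucleases and hands the break to recombination. Most of these genes are transcribed in dividing cells, and the epithelium of the embryonic airway holds both dividing progenitors and cells that are leaving the cycle to build cilia, the step in which these microRNAs are known to act.

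The mature microRNAs that the TKO embryos lack are shown because the family is defined by one seed. The 4 guide strands for which the RefSeq table (GRCm38.p6) holds an entry carry the seed at bases 2 to 8, printed in capitals, 5′ to 3′.
mmu-miR-34a-5p: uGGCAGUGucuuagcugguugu
mmu-miR-34b-5p: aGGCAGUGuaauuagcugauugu
mmu-miR-449a-5p: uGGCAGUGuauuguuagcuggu
mmu-miR-449c-5p: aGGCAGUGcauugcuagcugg
They lie at chr4:150068473-150068494 on the plus strand, chr9:51103610-51103632 on the minus strand, chr13:113037549-113037570 on the plus strand and chr13:113036008-113036028 on the plus strand. All 4 share the seed GGCAGUG and differ in the bases after it.

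The probe sets named for the targeted microRNA genes checked the labels, in a limma fit over all 22180 genes with no intensity filter. Mir449c averaged 7.26 ± 0.28 on the WT arrays against 3.67 ± 0.49 on the TKO arrays (SD over 5), and the limma fit gave a log2 change of -3.41 with an adjusted p of 2.6e-05. Mir449a (log2 change -1.81, limma adjusted p = 0.000442) and Mir449b (-0.33, limma adjusted p = 0.0318) were also lower. The Mir449b probe set stayed bright in TKO, at 11.79 against 12.17 in WT, so its small shift says little about the labels. Mir34a, Mir34b and Mir34c did not pass, with log2 changes of -0.15, -0.28 and -0.19 and limma adjusted p of 0.633, 0.166 and 0.318. Mir34a and Mir34c stood at 3.46 and 3.28 in WT. That is below the intensity filter of 4.58 used in the other tests, so a loss could hardly be measured there. Mir34b stood at 5.76 in WT, above the filter. Its TKO arrays all lay below its WT arrays, and the change still did not pass. For 15 respiratory epithelium markers the mean level lay between 9.42 and 9.60 on the WT arrays. On the TKO arrays it lay between 9.45 and 9.60. No other tissue was measured, so these levels cannot verify the tissue label. Markers of other cells also gave signal, with a mean level of 7.11 to 8.06 for mesenchyme on the WT arrays. Of the 15 epithelial markers, Ccno, Deup1 and Mcidas, which act in centriole amplification, were higher in TKO, with log2 changes of 0.76, 0.50 and 0.55. The next by p, Grhl2, an epithelial transcription factor, had a change of -0.21 with every TKO array below every WT array (limma adjusted p = 0.0702). In all, 7 of the 15 changes were positive, and their median was -0.05. Ccno and Mcidas lie within 5 Mb of the targeted Mir449 genes. Of 54 markers of mesenchyme, endothelium, skeletal muscle, cartilage and bone, leukocytes and glia, 49 had a negative change and 5 passed as lower. Over all genes in the fit, 49.8% of changes were positive, 4.39% of genes passed as higher and 1.12% as lower.

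Of the 33 members in the fit, 3 were higher in TKO and none was lower. Fancd2 rose 1.77-fold, Rad51ap1 rose 1.36-fold and Rad52 rose 1.26-fold. These are the ubiquitinated effector of the Fanconi pathway, an accessory protein of strand invasion, and an annealing protein for single strands. A gene counted as higher or lower at a limma adjusted p below 0.05, with labelled sex in the model and adjustment over all 16635 genes. By that rule 4.39% of all genes were higher and 1.12% lower, against 9.09% of the members higher. A change was positive for 27 members and negative for 6, against 49.8% positive over all genes. The median member change was 0.09 on the log2 scale, against -0.000517 over all genes.

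**Figure D1:**
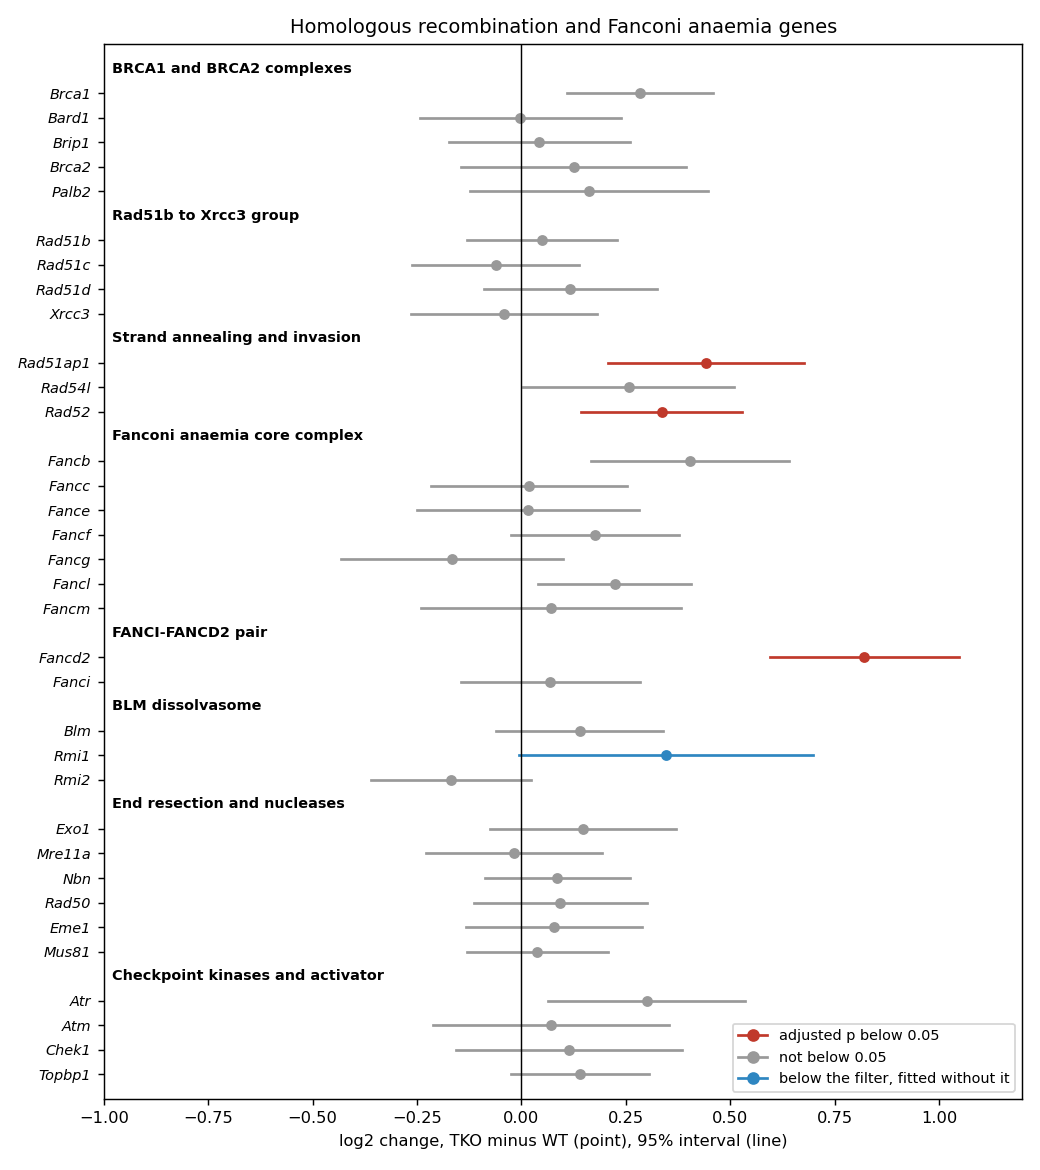
Log2 change, TKO minus WT, of the 33 members in the fit, with Rmi1 in blue fitted without the filter, grouped by role; the bars are 95% confidence intervals of single genes, and red points have an adjusted p below 0.05. Fancd2 at 0.82, Rad51ap1 at 0.44 and Rad52 at 0.34 carry the red points, and the other members in the fit lie between -0.17 and 0.40.

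The FANCI-FANCD2 pair is the switch of the Fanconi pathway, since the core complex acts on it. The Fancd2 value was 6.62, 6.94, 6.80, 6.66 and 6.57 on the WT arrays (1 to 5) and 7.39, 7.79, 7.62, 7.70 and 7.46 on the TKO arrays. Every TKO array stood above every WT array, with a gap wider than the range within either genotype. Group means were 6.72 ± 0.15 and 7.59 ± 0.17 (SD, n = 5 each), and the fitted log2 change was 0.82 (SE 0.10, 95% interval 0.59 to 1.05, limma adjusted p = 0.00128). Leaving out any 1 array kept the call, with changes between 0.77 and 0.89. With the females alone the change was 0.80 and the limma adjusted p 0.0571. With the mean level of the non-epithelial markers as a covariate it was 0.64, at a limma adjusted p of 0.0541. Its partner Fanci, which is clamped on DNA together with FANCD2, stood at 5.55 ± 0.14 in WT and 5.63 ± 0.09 in TKO. The Fanci change of 0.07 did not pass, and its 95% interval of -0.15 to 0.28 lies below that of Fancd2.

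The genes of strand annealing and invasion held the other 2 genes that rose. Rad51ap1 encodes an accessory protein that binds DNA and promotes strand invasion. The Rad51ap1 value was 6.82, 7.28, 6.90, 7.30 and 7.33 on the WT arrays and 7.53, 7.42, 7.64, 7.47 and 7.35 on the TKO arrays. The groups do not overlap, but the highest WT array and the lowest TKO array are almost level, and WT 1 and WT 3 stand below the other WT arrays. The change was 0.44 (SE 0.11, 95% interval 0.21 to 0.68, limma adjusted p = 0.0349). The call was lost without WT 3 and without any 1 of the TKO arrays, with limma adjusted p up to 0.198.

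RAD52 anneals single strands and, in mouse, is not essential for recombination. The Rad52 value was 7.16, 7.10, 6.89, 7.05 and 7.03 on the WT arrays and 7.25, 7.49, 7.49, 7.28 and 7.18 on the TKO arrays. The groups do not overlap, and TKO 5 stands close to WT 1. The change was 0.34 (SE 0.09, 95% interval 0.14 to 0.53, limma adjusted p = 0.0477). The call held without TKO 1 and was lost without any other single array, with limma adjusted p up to 0.257. With the non-epithelial covariate the changes of Rad51ap1 and Rad52 were 0.35 and 0.29, and neither passed (limma adjusted p = 0.354 and 0.362). With labelled sex left out of the model they were 0.36 and 0.29, and again neither passed (limma adjusted p = 0.075 and 0.0553).

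Rad54l encodes a DNA translocase that acts during strand invasion. Its value was 5.274, 5.416, 4.970, 5.465 and 5.502 on the WT arrays and 5.599, 5.216, 5.481, 5.537 and 5.629 on the TKO arrays. The groups overlap, and TKO 2 lies below every WT array but WT 3. The change of 0.26 (SE 0.12) did not pass (limma adjusted p = 0.229).

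**Figure D2:**
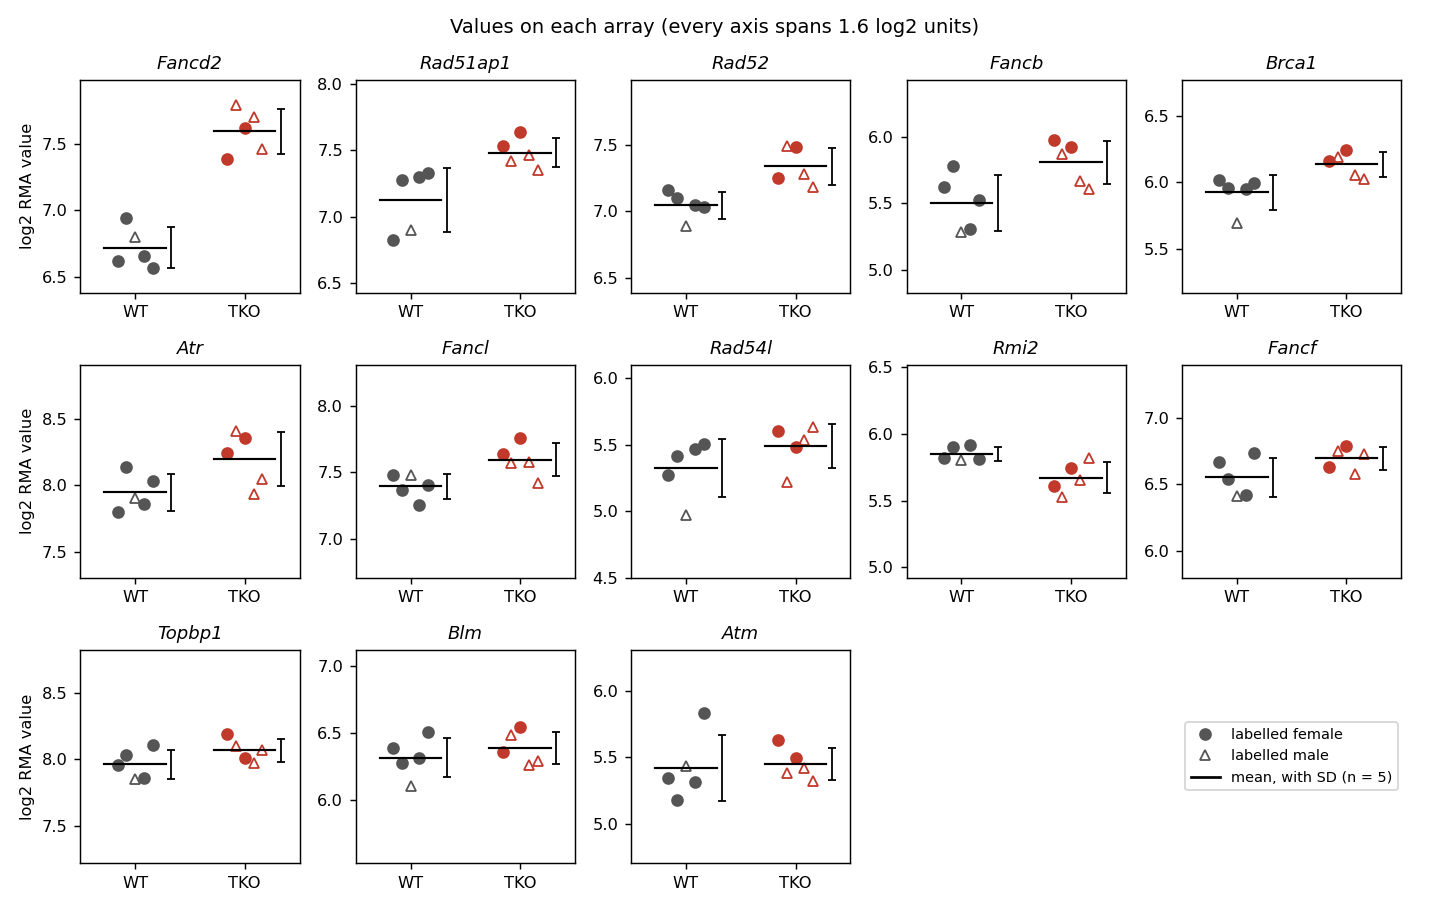
Log2 intensity of the 13 members given array by array, with 1 point per array, WT and TKO side by side and the group mean as a line. Fancd2, Rad51ap1, Rad52 and Brca1 are the 4 whose groups do not overlap; for Fancd2 the gap runs from 6.94 to 7.39.

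The BRCA1 and BRCA2 complexes act on resected ends, and none of their 5 measured genes passed the test. The Brca1 value was 6.016, 5.958, 5.697, 5.952 and 5.998 on the WT arrays and 6.162, 6.192, 6.246, 6.053 and 6.025 on the TKO arrays. The groups do not overlap, although TKO 5 exceeds WT 1 by little, and WT 3 lies well below the other WT arrays. The change was 0.28 (SE 0.08, limma adjusted p = 0.0618). Brca1 thus joined Fancd2, Rad51ap1 and Rad52 as the 4 of 33 members whose TKO arrays all exceeded all WT arrays, a separation seen in 5.54% of all genes. The opposite separation was seen in 2.07% of all genes and in none of the members. Bard1, the RING partner of BRCA1, had a change of -0.002482. Brip1, a helicase bound by BRCA1, had a change of 0.04, Palb2, the bridge between BRCA1 and BRCA2, 0.16, and Brca2, the partner of PALB2 at resected ends, 0.13. Their limma adjusted p lay between 0.532 and 0.994.

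Rad51b, Rad51c, Rad51d and Xrcc3, whose products form complexes that assist recombination, showed no call among 4 genes. Their changes were 0.05 for Rad51b, -0.06 for Rad51c, 0.12 for Rad51d and -0.04 for Xrcc3, with limma adjusted p between 0.537 and 0.861. The median of the 4 was 0.003778, close to that of all genes.

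The Fanconi anaemia core complex is the ubiquitin ligase for FANCD2, and none of its 7 tested genes passed. Fancb, on the X chromosome, encodes a subunit of the catalytic module. Its value was 5.63, 5.78, 5.29, 5.31 and 5.53 on the WT arrays and 5.97, 5.87, 5.92, 5.67 and 5.61 on the TKO arrays. The groups overlap, since WT 2 stands above TKO 4 and TKO 5. The change was 0.40 (SE 0.11, limma adjusted p = 0.0522), and the difference between the labelled sexes was -0.25, male minus female (limma adjusted p = 0.635).

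Fancl encodes the RING subunit that carries the ligase activity. Its value was 7.48, 7.37, 7.48, 7.26 and 7.41 on the WT arrays and 7.64, 7.57, 7.76, 7.58 and 7.42 on the TKO arrays. TKO 5 alone falls among the WT arrays, and the other TKO arrays exceed all of them. The change was 0.22 (SE 0.08, limma adjusted p = 0.152).

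Fancf, an adaptor of the complex, stood at 6.67, 6.54, 6.41, 6.42 and 6.74 on the WT arrays and at 6.63, 6.75, 6.79, 6.58 and 6.73 on the TKO arrays. The groups overlap widely, and the change of 0.18 (SE 0.09) did not pass (limma adjusted p = 0.301). Fancc, Fance and Fancm, the last a translocase that recruits the complex to stalled forks, had changes of 0.02, 0.02 and 0.07. Fancg, a scaffold subunit, had the only negative change of the complex, -0.17, at 5.79 ± 0.17 in WT against 5.58 ± 0.20 in TKO (limma adjusted p = 0.489).

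The BLM dissolvasome takes apart double Holliday junctions without crossing over. Blm, its helicase, stood at 6.39, 6.27, 6.10, 6.31 and 6.51 on the WT arrays and at 6.36, 6.49, 6.55, 6.26 and 6.29 on the TKO arrays. The groups overlap over most of their range, with a change of 0.14 (SE 0.09, limma adjusted p = 0.425). Rmi2, an OB-fold subunit that supports BLM, stood at 5.82, 5.90, 5.80, 5.92 and 5.82 on the WT arrays and at 5.61, 5.52, 5.74, 5.65 and 5.82 on the TKO arrays. TKO 5 reaches the WT range, and the other TKO arrays lie below it. The Rmi2 change of -0.17 (SE 0.09) was the most negative of the members and did not pass (limma adjusted p = 0.301). Rmi1, the other OB-fold subunit, was too dim for the fit, at 3.01 ± 0.27 in WT and 3.27 ± 0.28 in TKO. Fitted without the filter, its change was 0.35 (limma adjusted p = 0.297).

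The 6 genes of end resection and joint cleavage had changes between -0.02 and 0.15, and none passed. Mre11a, Rad50 and Nbn, the complex that senses and first trims a break, had changes of -0.02, 0.09 and 0.09. Exo1, the long-range exonuclease, had 0.15, and Eme1 and Mus81, the paired junction endonuclease, 0.08 and 0.04. Nbn stood at 7.65 ± 0.12 in WT and 7.74 ± 0.06 in TKO.

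The checkpoint kinases signal the damage to the cell cycle, and none of the 4 genes passed. Atr, the kinase that answers to single-stranded DNA, stood at 7.80, 8.14, 7.90, 7.86 and 8.03 on the WT arrays and at 8.24, 8.41, 8.35, 7.93 and 8.04 on the TKO arrays. TKO 4 and TKO 5 fall among the WT arrays, while TKO 1, TKO 2 and TKO 3 exceed all of them. The change was 0.30 (SE 0.11, limma adjusted p = 0.135), and the second Atr probe set gave 0.205. Topbp1, which activates ATR, stood at 7.96, 8.03, 7.85, 7.86 and 8.11 on the WT arrays and at 8.19, 8.10, 8.01, 7.97 and 8.07 on the TKO arrays. Those groups overlap, with a change of 0.14 (SE 0.08, limma adjusted p = 0.316). Atm, the kinase that answers to double-strand breaks, lies within 5 Mb of Mir34b and Mir34c, the targeted locus on its chromosome. Its value was 5.348, 5.180, 5.433, 5.319 and 5.835 on the WT arrays and 5.631, 5.382, 5.495, 5.418 and 5.321 on the TKO arrays. The highest Atm value was WT 5, and the change of 0.07 (95% interval -0.21 to 0.35) did not pass (limma adjusted p = 0.815). Chek1, the kinase below ATR, had a change of 0.11, from 5.72 ± 0.15 to 5.87 ± 0.21.

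For the 30 members that did not pass, single-gene 95% intervals of the log2 change ran from -0.432 at the lowest to 0.64 at the highest. For 27 of the 30 the whole interval lay between -0.5 and 0.5. At an unadjusted limma p below 0.05, 8 of 33 members were higher and 0 lower. Counted in either direction, the share of members is near the 20.9% of all genes. The share of all genes that was higher was not computed, so the 8 higher members have no like comparison. No member differed between the labelled sexes by limma (lowest adjusted p 0.635), with 2 at an unadjusted p below 0.05. The genotype effect did not differ between females and males for any member in the limma interaction test, where 0 members had even an unadjusted p below 0.05. That test rests on 1 WT male.

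Array by array, the members did not move evenly. The number of the 34 measured members above their own mean over 10 arrays was 16, 15, 9, 11 and 19 on the WT arrays and 23, 23, 25, 18 and 17 on the TKO arrays. WT 5 thus exceeded TKO 4 and TKO 5 by this count. WT 3 held the lowest value of all arrays for 10 members, and TKO 3 the highest for 9. The mean level of the 34 measured members lay between 6.103 and 6.237 on the WT arrays and between 6.242 and 6.327 on the TKO arrays. These mean levels did not overlap, but the gap was narrow. The non-epithelial marker score, centred on its mean, was 0.19, -0.42, 0.43, 0.27 and -0.04 on the WT arrays and -0.35, -0.00102, -0.50, 0.22 and 0.20 on the TKO arrays. WT 3 has the highest non-epithelial score and the fewest members above their mean, and TKO 3 the lowest score and the most. Other arrays depart from that order: WT 2, with the next lowest score (-0.42), had 15 members above their mean. TKO 2, with a score of -0.00102, had 23. An association between score and count was not tested. Among the non-epithelial lists, skeletal muscle had 3 of 12 markers lower (Tnni2, Tnnt3 and Ttn), with mean levels of 5.36 to 6.92 in WT and 5.23 to 6.13 in TKO. Mesenchyme had 1 of 12 lower (Col3a1), at 7.11 to 8.06 and 6.77 to 8.16, and endothelium 1 of 8, at 5.11 to 5.66 and 5.00 to 5.48. None of 8 cartilage and bone, 9 leukocyte, 5 glial and 10 olfactory neuron markers passed. The olfactory neuron markers varied widely between arrays, with mean levels of 5.78 to 8.04 in WT and 5.68 to 7.20 in TKO. They did not enter the non-epithelial score. Every one of these marker ranges overlaps between the genotypes. The lowest value in the series was 1.5, so a value above 0 does not show that a cell type was present. With the score as a covariate no member was called by limma, and 0.469% of all genes were higher and 0.0541% lower.

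Other genes of recombination and the Fanconi pathway, from a list of 59 of which 51 were tested, gave 4 higher (7.84%) and 0 lower. Over all genes 4.39% were higher and 1.12% lower. Fignl1, an AAA protein of recombination, averaged 6.62 ± 0.24 in WT against 7.17 ± 0.16 in TKO, with a log2 change of 0.66 (SE 0.10, limma adjusted p = 0.0039). Dna2, the nuclease-helicase of long resection, had 0.49, Ube2t, the ubiquitin-conjugating enzyme that works with FANCL, 0.48, and Rfwd3, a ubiquitin ligase that acts on RPA, 0.37. The median change of the list was 0.08. Of 31 genes of replication stress and damage signalling, 4 rose (12.9%) and none fell. Rad17, the clamp loader of the checkpoint, and Rad18, the ubiquitin ligase of PCNA, each rose by 0.60. Rif1, which limits resection, rose by 0.46, and H2ax, the histone marked at breaks, by 0.45.

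The remaining repair pathways held 1 gene past the threshold, while 4.39% of all genes were higher and 1.12% lower. Non-homologous end joining had 0 of 11 and a median change of 0.01, and its 4 genes of smallest p were Paxx (-0.23), Xrcc6 (0.21), Polm (-0.12) and Lig4 (0.11). Base excision repair had 0 of 16, with Polb at 0.23 (limma adjusted p = 0.0849), and nucleotide excision repair had 0 of 16, with Gtf2h5 at 0.22 and Xpc at -0.25. In mismatch repair Pms2, a subunit of the MutL nuclease, fell by 0.44 (limma adjusted p = 0.0385), 1 of 8 genes.

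The replication and mitosis lists place the members among other genes of dividing cells. Like the repair lists, both were chosen with earlier results of these data known, so their shares give no independent support. Of 37 DNA replication genes 1 was higher (2.7%, against 4.39% of all genes). It was Gins1 of the replicative helicase, with a change of 0.79 (SE 0.17, limma adjusted p = 0.0219). The median replication change was 0.12, and 30 of the 37 changes were positive. Of 33 mitosis genes 17 were higher (51.5%, against 4.39% of all genes) and all 33 had a positive change, with a median of 0.39. Cdca8, of the chromosomal passenger complex, rose by 0.94 (limma adjusted p = 0.00023), Top2a, the decatenating topoisomerase, by 0.77, Cenpf, a kinetochore protein, by 0.70 and Aurka, the spindle pole kinase, by 0.58. The mean mitosis level ran from 7.25 to 7.59 in WT and from 7.73 to 7.91 in TKO, so the genotypes did not overlap, whereas the replication levels of 6.86 to 7.06 and 6.96 to 7.07 did. Like mitosis, the members had mean levels that did not overlap, up to 6.237 in WT and from 6.242 in TKO, a far narrower gap. No test of the difference between lists was made.

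**Figure D3:**
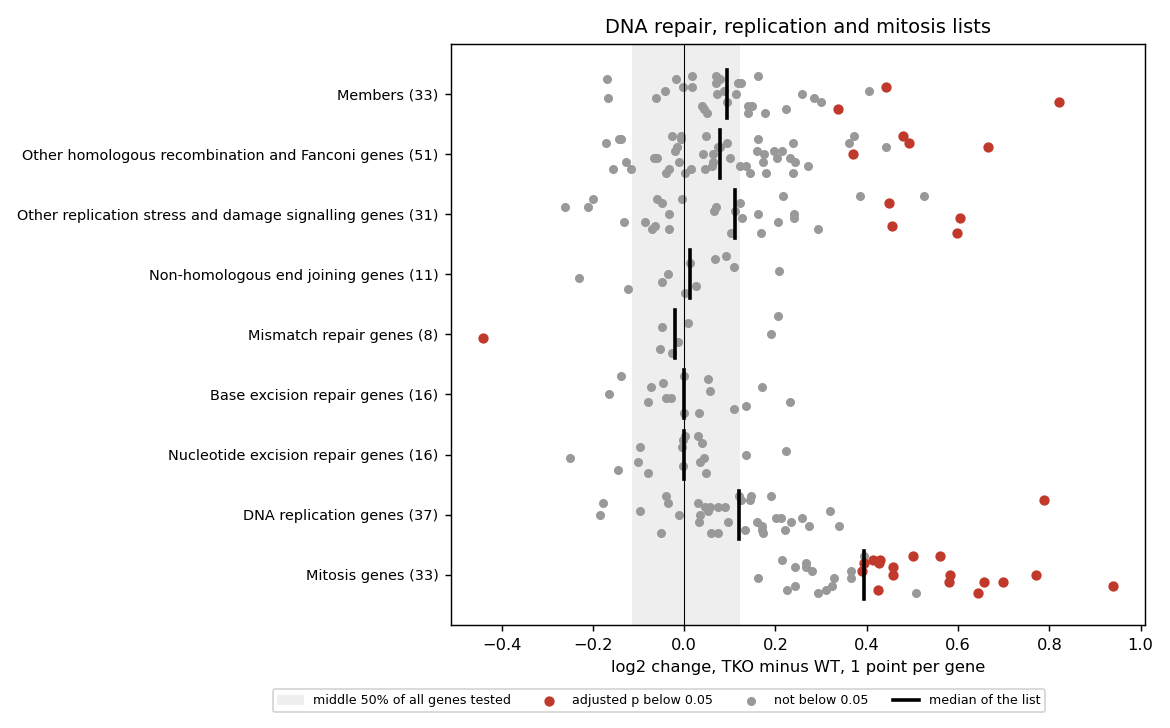
Log2 change, TKO minus WT, of each tested gene in the members and in the other lists, with the list's median as a bar and the middle 50% of all genes shaded. The medians of the members (0.09) and of DNA replication (0.12) lie inside the shaded band or at its edge, and that of mitosis (0.39) lies beyond it.

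**Figure D4:**
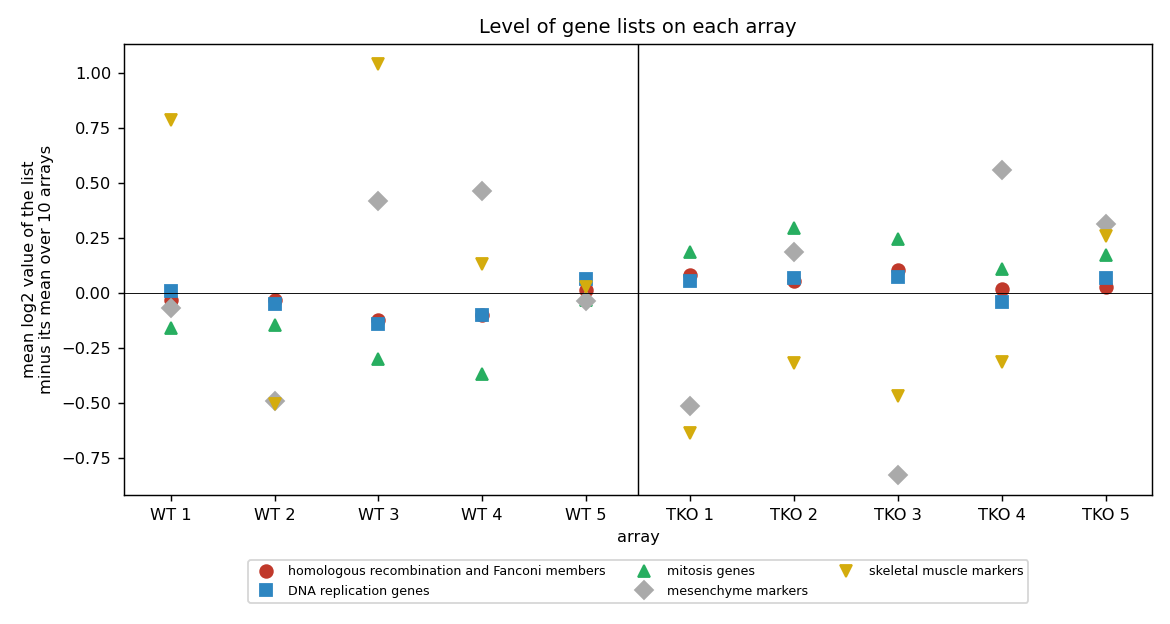
Mean log2 value of a list on each array, minus its mean over the 10 arrays, for the members, DNA replication, mitosis, mesenchyme markers and skeletal muscle markers. The members run from -0.12 (WT 3) to 0.10 (TKO 3), mitosis from -0.37 (WT 4) to 0.29 (TKO 2), and the muscle markers from -0.64 (TKO 1) to 1.04 (WT 3).

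Promoter letters were searched in the RefSeq windows from 250 bases before to 50 bases after the start (GRCm38.p6), which were present for 29 members. E2F factors drive many genes of the S phase, and the letters TTTCCCGC, TTTCGCGC, TTTGCCGC and TTTGGCGC, on either strand, were found in 6 of the 29 (20.7%), against 2.6% of all 27025 genes with a window. These were Bard1, Brca2, Rad51c, Fancg, Rmi1 and Topbp1. Rmi1 was too dim for the fit, and none of the others passed the expression test. Whether E2F factors act on these genes here was not tested. The matches of 3 of them are shown to set the letters beside genes that did not pass, each as 26 bases on the gene's strand with the match in capitals.
Bard1: gccgctcagTTTCCCGCtcaggaagt
Brca2: taggccacaGCGGGAAAcagacacac
Topbp1: gctcggttgGCGCGAAAgtcggttcc
They lie at chr1:71103165-71103190 on the minus strand, chr5:150522444-150522469 on the plus strand and chr9:103305189-103305214 on the plus strand. CCAAT, the box bound by NF-Y, was in 17 of 29 windows (58.6%), against 41.06% of genes. TTTGAA, the CHR element of many mitotic genes, was in 3 (10.3%), against 20.23% of genes. Fancd2 is among the 8 members with no window in the table. Of the other members that rose, the Rad51ap1 window held CCAAT alone of the 3 motifs and the Rad52 window held none. No CCAAT or TTTGAA match overlapped an E2F match in the member windows, and overlap between CCAAT and TTTGAA matches was not checked. A match is a run of letters, not a bound site.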

How the data were processed

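Per the labels, RNA from laser-captured, formalin-fixed sections was amplified and labelled with an Affymetrix kit for such material. The deposited values are log2 intensities after RMA in Affymetrix Expression Console, per the submitters' processing notes; versions and genome build were not given in the sources used here. Of 41345 probe sets, 23521 carried 1 gene symbol, 1814 several and 16010 none in the platform annotation; 23328 matched RefSeq by Entrez identifier. The probe set with the highest mean stood for a gene, and genes below the 25th percentile of gene means (4.58) were left out. Pairs of arrays correlated at 0.9747 to 0.9885, so no array was a copy of another. Their number, 10, limits the precision.

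Genotype was tested with limma 3.58.1 in R 4.3.3 (lmFit, eBayes with an intensity trend), with labelled sex as covariate and Benjamini-Hochberg adjustment over 16635 genes, and the code was tested on simulated data. Sequences and promoter letters were read with Python 3.11.15. Members given array by array were those of smallest p up to 12, plus Atm, which lies within 5 Mb of a targeted locus; of every other list up to 4 genes of smallest p were named. The members and all lists were chosen with earlier results of these data known. The 23 alternative settings covered the sex term, the replicate block, filters, variance model, array weights, normalization, probe sets, females alone, a non-epithelial covariate and each array left out.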

Additional observations from a re-analysis of the deposited data

Results flagged for a closer look

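Within each genotype every measured member was checked for 1 array far from the other 4. Of 68 groups of 5 arrays, 5 held such an array, and chance gives about 1 in 20. Brca1 on WT 3 stood at 5.697, below the other WT arrays at 5.952 to 6.016. Palb2 on WT 2 stood at 5.804, above the others at 5.177 to 5.352. Rad51d on WT 1 stood at 6.571, below 6.803 to 6.883, and Fance on WT 2 at 6.038, below 6.446 to 6.534. Fancc on TKO 3 stood at 4.974, above the other TKO arrays at 4.842 to 4.87. None of these 5 genes passed the genotype test.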

How the results depend on the processing

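The count of members higher in TKO was 3. It was 1 without the sex term, 5 with arrays centred on their medians, 0 in females alone and 0 with the non-epithelial covariate; the females-only fit has 6 arrays, and the cause of the other differences was not tested. Leaving out each array gave 1 to 3, with 1 without WT 3, TKO 2, TKO 3, TKO 4 or TKO 5. No member was lower under any setting. The median change stayed positive, at 0.0749 to 0.135 over the left-out arrays and 0.0811 to 0.125 otherwise. Fancd2 was called in 21 of 23 settings, Rad51ap1 in 13, Rad52 in 6, Fancb in 5, Brca1 in 3 and Atr in 1, and no direction of a called member reversed. With the replicate block, 3 members were higher (Atr in place of Rad52) and the median was 0.104. The labels do not say that the replicate numbers pair the embryos. Same-numbered arrays correlated at -0.127 to 0.379 in their deviations, highest for replicate 4, a check that cannot exclude shared litters. Over all genes 916 passed; 210 did without WT 3, 307 without TKO 3, 56 in females alone and 87 with the covariate. Without WT 3 the genotype effect rests on females alone. Sex and genotype are unevenly spread, and the interaction calls stayed at 0 members without any 1 array other than WT 3, the only WT male, which could not be left out.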
